A study of Mus musculus with 6 samples.

Results

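The interleukin-1 (IL-1) response of the early growth response (EGR) factors and their NAB corepressors was examined in cultured fibroblasts of mouse dermis, the cells that make the connective tissue of the skin. The genes were Egr1, Egr2, Egr3, Nab1 and Nab2, taken as every non-control probe that carries one of these names in the scanner files. That gave 7 probes of 41174 on the array and 5 genes of 28100 named there. Egr3 and Nab1 had 2 probes each, and all 7 passed the filter on dim probes, so no member was lost. The treated cells were C57BL/6 dermal fibroblasts held in 20 ng/ml IL-1 for 1, 2 or 4 h, and the untreated cells were C57BL/6 dermal fibroblasts at 0 h. No untreated culture of 1, 2 or 4 h was included, so IL-1 and time in culture or handling cannot be told apart. The labels do not say which IL-1 was used, or the age or sex of the mice. Because RNA was taken from whole cultures, fewer cells of a type and less RNA per cell cannot be told apart. Each of 6 arrays carried treated RNA of 1 time point and untreated RNA in different dyes. The 2 arrays of a time point were a dye swap of the same RNAs and counted as 1 sample, so each time point is 1 sample of treated RNA.

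EGR proteins are zinc finger transcription factors that bind GC-rich sites, and their genes are classic immediate early genes, switched on within minutes by growth factors and cytokines through MAP kinases and serum response factor (SRF). NAB1 and NAB2 bind EGR1, EGR2 and EGR3 and repress their activity, in part through the NuRD chromatin remodelling complex, and EGR factors can in turn induce NAB genes. In dermal fibroblasts EGR1 is known for its part in collagen production and in the response to TGF-beta.

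Ratios below are log2 of treated over untreated, so 1 is a doubling. They are given for the array with treated RNA in Cy5 and then for the array with it in Cy3. The error on a mean of both is the distance of either array from it, which is technical only; its median over all probes and times was 0.062 and its 95th percentile 0.197. Of 30580 probes with a value on all arrays, 52 (0.17%) were at least 2-fold higher in both orientations at 1 h, 41 (0.134%) at 2 h and 34 (0.111%) at 4 h. Among the 7 member probes, 1, the Egr2 probe, passed this rule at 1 h and 0 passed at 2 h or 4 h. None was 2-fold lower in both orientations at any time, against 0.00654% of probes at 1 h and 0 probes at 2 h and 4 h. The mean response over the 3 time points was tested with limma against 0, and the slope per doubling of time was tested in the same way. These fits have 2 and 1 residual degrees of freedom. By adjusted p under 0.05, 10.5% of probes rose in the mean response and 11.4% fell. A slope was called for 0.196% of probes (rising) and 0.242% (falling). Separate cultures per time point are not mentioned, so p-values cover only the spread between these samples. By these tests 2 of the 7 member probes rose in the mean response, both of Nab1, and 1 fell, that of Egr1. Falling slopes were called for 2, Egr2 and one Egr3 probe. At a 1.5-fold threshold 2 of the 7 passed upward at 1 h (0.36% of probes) and 0 downward at 2 h (0.0491%). No member spot was saturated or an outlier. Median signals of the arrays were 121 to 132 in the treated channel and 123 to 137 in the untreated channel, above negative control medians of 68.4 to 104 and 69 to 102.

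Fibroblast identity was checked with 10 marker genes, among them Col1a1, Pdgfra, Dcn and Vim. All 10 were brighter than every one of 314 negative control spots on all 6 arrays, in treated and in untreated RNA. By the same standard 1 of 5 Schwann cell markers was detected in treated RNA and 2 in untreated RNA, which were Mbp and Pmp22, and Schwann cells are the cells where Egr2 is best known. Sox10, a defining Schwann cell gene, did not meet this standard in untreated RNA. The summed processed signal of the Schwann cell list ran from 20700 to 25700 in treated RNA and from 22500 to 28000 in untreated RNA. Keratinocyte markers were detected for 1 of 6 genes in treated RNA and 2 of 6 in untreated RNA (Krt5 and Krt10). By the more permissive flag for signals well above background, which up to 14.3% of negative controls also carry, 4 of 5 Schwann cell markers in treated RNA and 5 of 5 in untreated RNA passed on all 6 arrays, as did 6 of 6 keratinocyte and 6 of 8 leukocyte markers in both. The part of such cells in the results was not tested. By the stricter standard endothelial and melanocyte markers were at 0 of 5 and 0 of 4 in both RNAs. Leukocyte markers were at 1 of 8 in both, which in untreated RNA was Cd3e.

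**Figure D1:**
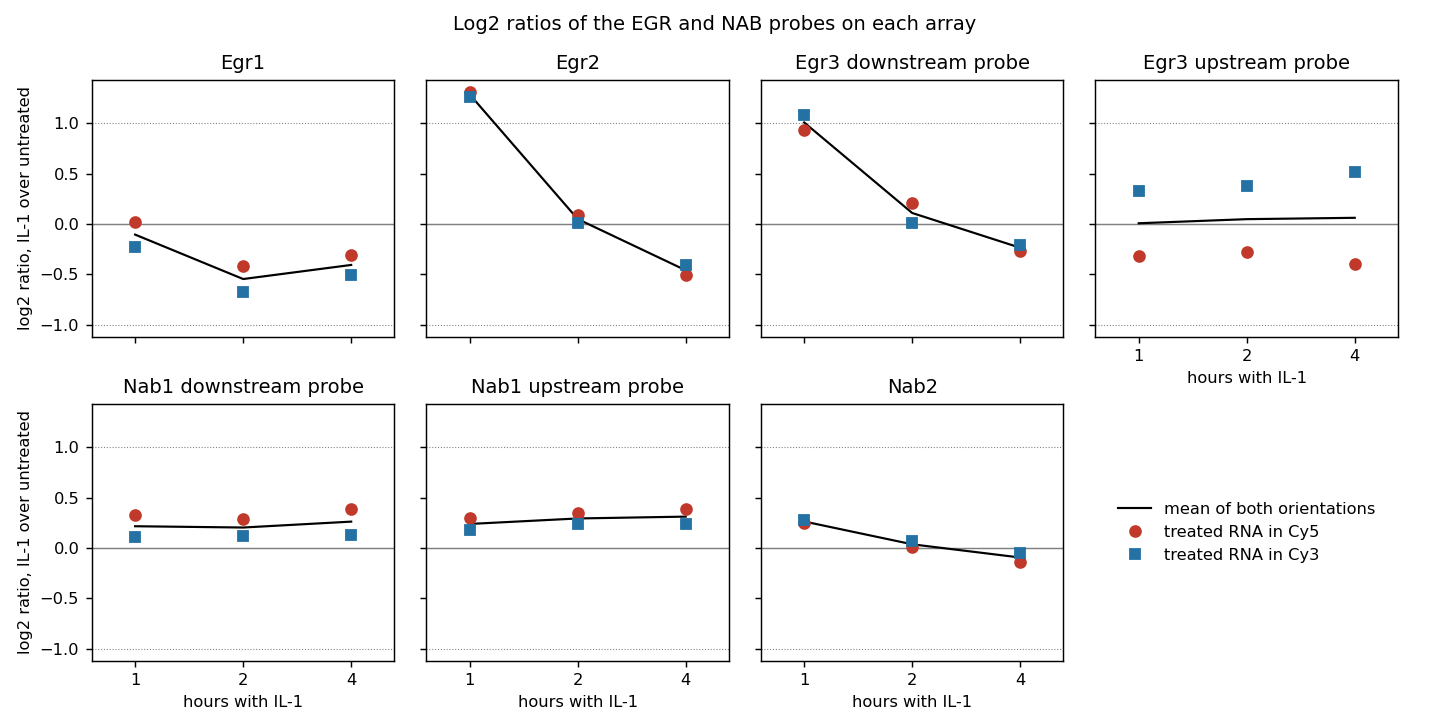
Log2 ratio of IL-1-treated over untreated RNA (y axis) against hours with IL-1 (x axis) for the 7 member probes; circles are arrays with treated RNA in Cy5, squares arrays with it in Cy3, lines their mean, and dotted lines a 2-fold difference. Egr2 and the Egr3 downstream probe stand at 1.28 and 1.01 at 1 h and lie below 0 at 4 h, Egr1 lies below 0 at 2 h and 4 h, and the Egr3 upstream probe has opposite signs in the 2 orientations.

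Egr2 was the one member to pass the 2-fold rule at 1 h. EGR2 (also called Krox-20) is a transcription factor needed for hindbrain patterning and for myelination by Schwann cells. Its probe (A_51_P173043) lies at positions 67595805 to 67595864 of chromosome 10 in the coordinates of the scanner files, whose genome build was not given in these sources. For that reason no exon or UTR is assigned to any probe.

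At 1 h Egr2 gave ratios of 1.31 and 1.26, at 2 h of 0.093 and 0.0046, and at 4 h of -0.51 and -0.41. The 2 orientations lay close together at each time. The mean at 1 h was 1.28 ± 0.0275, or 2.44-fold higher, and 41 of the 30580 probes stood above it. At 2 h the mean was 0.049 ± 0.0442, close to the untreated level. At 4 h it was -0.46 ± 0.051, or 1.37-fold lower, and 0.278% of probes were lower still. In normalized log2 intensity, treated cells averaged 9.80 at 1 h, 8.53 at 2 h and 8.09 at 4 h, against 8.52 (SD 0.0901, 6 arrays) in untreated RNA. The 1 h treated values, 9.88 and 9.72, lay above all 6 untreated values, which ran from 8.41 to 8.65. The 4 h treated values, 8.14 and 8.05, lay below all 6. The 2 h treated values fell within the untreated range.

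The ratio of Egr2 was higher at 1 h than at 4 h by 1.82 and 1.66 within the 2 orientations. A drop of at least 2-fold in both orientations was seen for 2 member probes, this one and one of Egr3, against 21 of 30580 probes (0.0687%). Its slope was -0.87 per doubling of time (SE 0.0843, n = 3 samples, limma adjusted p = 0.0149), so the ratio fell with time. Its mean response of 0.29 did not pass (adjusted p = 0.544), with time points on both sides of 0. The slope did not pass when the normexp offset was 16 (adjusted p = 0.469), on processed signals (0.533) or with a trended robust variance (0.0622), where its size was -0.95, -0.997 and -0.87. Under median centring in place of loess the 1 h ratios were 1.88 and 0.45, a mean of 1.16, and the 2-fold rule was not met.

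Egr2 has 5 promoter entries in the RefSeq promoter table of GRCm38.p6, and 4 of them hold a CArG box, the site bound by SRF, in the 250 bases before the start. Of these 4, 3 overlap and hold the same box, so there are 2 distinct boxes. The 250 bases before 2 of these starts are shown because SRF sites are the textbook route of immediate early induction. Capitals mark motif matches on either strand: the CArG box in both, the ETS core CCGGAA, bound by SRF partners such as ELK1, in the first, and the CREB core site TGACG in the second. The first lies at chr10:67537316-67537565 and the second at chr10:67537619-67537868, both on the + strand.

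Egr2 promoter, first start: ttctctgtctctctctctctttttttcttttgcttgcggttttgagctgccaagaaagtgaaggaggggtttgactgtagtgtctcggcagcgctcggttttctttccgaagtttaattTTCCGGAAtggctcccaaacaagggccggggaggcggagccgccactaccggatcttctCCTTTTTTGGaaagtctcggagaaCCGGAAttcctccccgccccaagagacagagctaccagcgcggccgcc

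Egr2 promoter, second start: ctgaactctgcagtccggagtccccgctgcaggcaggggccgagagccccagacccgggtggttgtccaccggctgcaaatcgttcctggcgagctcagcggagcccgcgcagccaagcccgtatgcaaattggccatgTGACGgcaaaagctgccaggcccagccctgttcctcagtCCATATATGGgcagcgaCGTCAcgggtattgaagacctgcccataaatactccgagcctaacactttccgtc

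In each of the 2 sequences the CArG box lies 72 bases before the start. In the first, ETS cores lie 131, 129 and 48 bases before the start, and the pair at 131 and 129 overlap on opposite strands. In the second, CREB core sites lie 111 and 55 bases before it. Of 32851 promoter entries of the same length, 1.47% hold a CArG box, 12% an ETS core and 17.8% a CREB core site. The NF-kB consensus motif and the AP-1 motif (TGANTCA) matched in none of the Egr2 entries, and 1.41% and 6.75% of all entries hold them. A match describes letters in this window only.

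Egr3 was measured by 2 probes on chromosome 14 that lie 3152 bases apart and gave different readings. EGR3 is the family member needed for muscle spindle development, and is also induced in activated lymphocytes. The downstream probe (A_52_P440836, 64398101 to 64398160, accession AK078299) had ratios of 0.93 and 1.08 at 1 h, of 0.21 and 0.0063 at 2 h, and of -0.27 and -0.20 at 4 h. Its 1 h mean was 1.01 ± 0.0753, or 2.01-fold higher, and 56 of 30580 probes stood above it. It missed the 2-fold rule because one orientation was under 1. At 2 h the mean was 0.11 ± 0.103.

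At 4 h the treated signal of the downstream probe was not well above background on either array. Measured levels averaged 5.99 in treated and 6.22 in untreated RNA. With treated levels raised to at least the lowest level of any probe flagged well above background, the treated level was 1.14-fold lower. This is no limit on an undetected signal, so a minimum fall cannot be given. Of the negative controls, 0.318% (treated RNA in Cy5) and 57.3% (in Cy3) were brighter than the treated spot. Under median centring the 4 h ratios were -0.54 and 0.19. The untreated signal was itself dim, and up to 16.6% of the negative control spots were brighter than it on 1 array. With the 4 h treated levels raised in this way, the ratio was higher at 1 h than at 4 h by 1.1975 (Cy5) and 1.2025 (Cy3). The Cy5 value is the measured one, since raising left that level unchanged. The slope, which rests on the measured 4 h values, was -0.62 per doubling of time (SE 0.0666, n = 3 samples, limma adjusted p = 0.0227), and the mean response of 0.29 did not pass (adjusted p = 0.385). The size of the 1 h response depended on how background was treated: 0.75 with no background correction, 1.53 at an offset of 16, and 2.27 on the processed signals of the scanner. The slope did not pass with the offset of 16 (-1.002, adjusted p = 0.387), the processed signals (-1.73, 0.533), a trended robust variance (-0.62, 0.0871) or without the arrays that carry treated RNA in Cy5 (-0.64, 0.0774).

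The upstream Egr3 probe (A_51_P437198, 64394949 to 64395008, accession NM_018781) did not give one direction. Its ratios at 1 h were -0.31 and 0.33, those for 2 h were -0.28 and 0.38, and those for 4 h were -0.39 and 0.52. The sign followed the dye at all 3 times, so that the means of 0.0069, 0.048 and 0.061 came with distances of 0.320, 0.328 and 0.455. The mean response was 0.038 (SE 0.024, limma adjusted p = 0.319). The test called this probe in either orientation alone, with opposite signs, and those values stand with the other alternatives. Signals were near those of the negative controls, with the untreated signal well above background on 5 of 6 arrays. No Egr3 response can be read from this probe.

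Egr1, the founding member of the family, did not rise at any time measured. EGR1 is the transcription factor most often used as a marker of early growth factor signalling. Its probe (A_51_P367866, chromosome 18, 35088400 to 35088459) had ratios of 0.019 and -0.23 at 1 h, of -0.42 and -0.67 at 2 h, and of -0.30 and -0.51 at 4 h. The 1 h mean of -0.11 ± 0.124 had arrays on both sides of 0. The 2 h mean of -0.55 ± 0.127 was 1.46-fold lower, and 0.114% of probes were lower still. The 4 h mean of -0.41 ± 0.103 was 1.33-fold lower.

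Egr1 fell in the mean response, by 0.35 on the log2 scale (SE 0.0764, n = 3 samples, limma adjusted p = 0.0221). It was lower on 5 of 6 arrays after loess. Under median centring the Cy5 ratios were above 0 (0.62, 0.080 and 0.23 at 1, 2 and 4 h). The Cy3 ratios were then below 0 (-1.07, -1.52 and -1.22), and the mean response of -0.48 passed (limma adjusted p = 0.00205). The call was lost with an offset of 16 (mean -0.37, adjusted p = 0.0552) and on processed signals (-0.39, 0.109), where the fall was no smaller. It was also lost without the 2 h sample (-0.26, 0.101) and without the 4 h sample (-0.33, 0.076). The slope of -0.15 did not pass (adjusted p = 0.525). In normalized log2 intensity, treated cells averaged 9.52, 8.95 and 9.20 at 1, 2 and 4 h, against 9.58 (SD 0.219, 6 arrays) in untreated RNA. The single treated values ran from 8.77 to 9.73 and the untreated ones from 9.19 to 9.81, so the 2 sets overlap between arrays. After loess, the ratio within each array at 2 h and 4 h was nevertheless below 0.

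**Figure D2:**
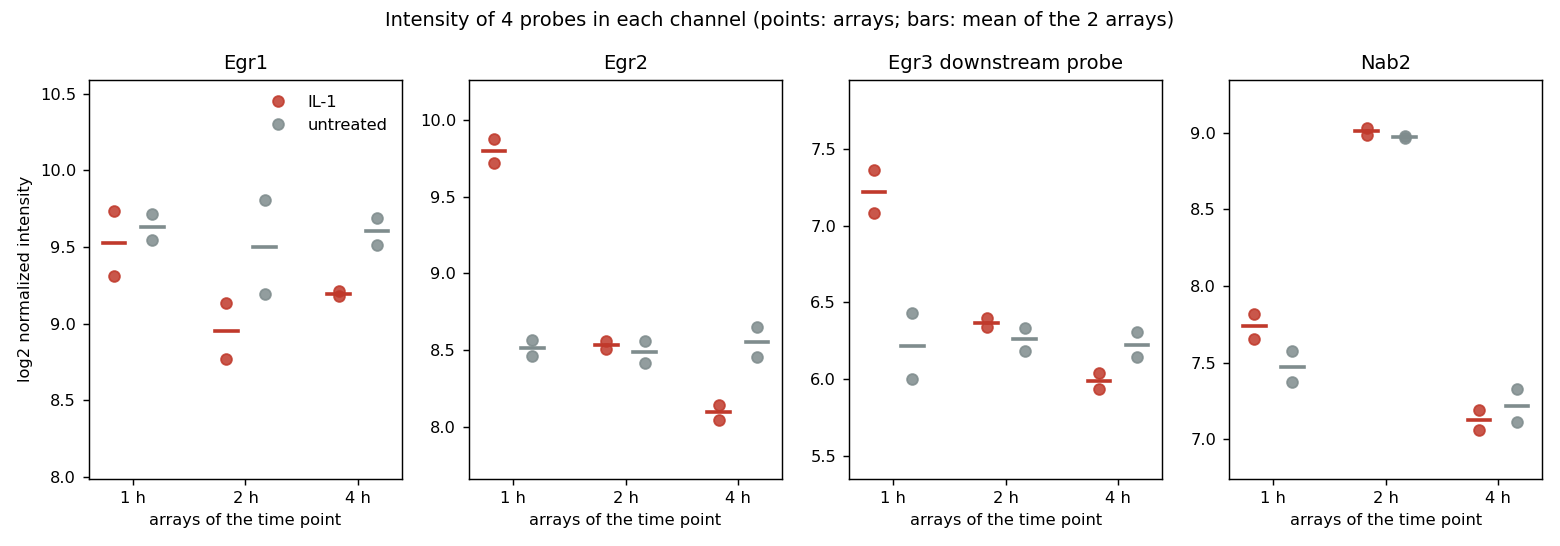
Normalized log2 intensity (y axis) in the IL-1-treated channel (red, left) and the untreated channel (grey, right) of the arrays of each time point (x axis) for Egr1, Egr2, the Egr3 downstream probe and Nab2; points are arrays, bars the mean of 2 arrays, and each panel has its own range of the same width. The treated points of Egr2 at 1 h lie above all its untreated points, and both channels of Nab2 are brighter on the 2 h arrays than on the others.

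Nab1, which encodes the NAB corepressor expressed in many tissues, showed a small rise with both probes. The downstream probe (A_52_P301724, chromosome 1, 52758284 to 52758343) had ratios of 0.33 and 0.10 at 1 h, of 0.29 and 0.11 at 2 h, and of 0.39 and 0.13 at 4 h. The upstream probe (A_52_P318438, 52759243 to 52759302), 959 bases away, gave 0.30 and 0.18, 0.35 and 0.24, and 0.39 and 0.24 at the same times. All 12 ratios were above 0 after loess. Under median centring the Cy3 ratios of both probes were below 0, from -0.78 to -0.44, and the Cy5 ratios above 0.

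The means of the downstream probe were 0.22, 0.20 and 0.26, and those of the upstream probe 0.24, 0.29 and 0.31. Both probes rose in the mean response, by 0.23 (SE 0.0243, n = 3 samples, limma adjusted p = 0.00261) and by 0.28 (SE 0.0254, adjusted p = 0.00168). The upstream call held in all 13 alternatives run, and the downstream call in 13 of 14. The exception was median centring, where the downstream mean was 0.091 (adjusted p = 0.0866) and the upstream mean 0.165. Neither slope passed (adjusted p = 0.845 and 0.731). The 2 probes share a transcript or locus and the same RNAs, and are not separate replicates.

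The promoter of Nab1 is shown because it holds EGR motifs and belongs to the member whose probes rose. Its one entry lies at chr1:52500449-52500698 on the - strand of GRCm38.p6. Capitals mark the EGR motif GCGNGGGCG on either strand, and the CREB core site TGACG on the opposite strand.

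Nab1 promoter: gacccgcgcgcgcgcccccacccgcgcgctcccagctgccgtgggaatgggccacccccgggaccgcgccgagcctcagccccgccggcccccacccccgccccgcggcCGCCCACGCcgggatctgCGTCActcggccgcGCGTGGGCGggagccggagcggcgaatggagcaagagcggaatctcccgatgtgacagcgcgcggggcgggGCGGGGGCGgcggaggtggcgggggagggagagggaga

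EGR motifs lie 141, 109 and 38 bases before the start, the first of them on the opposite strand, and the CREB core site lies 123 bases before it. One or more EGR motifs are held by 4.7% of all promoter entries. GC content of this window is 80.8%, while the 4.7% covers entries of any GC content. As for Egr2, a match describes letters only, and a part of EGR factors in the Nab1 rise was not tested. In the single Nab2 entry none of the 6 motifs searched matched. Egr3 has no entry in the table used. Entries on chromosome 18, which holds Egr1, were left out for the members, so no Egr1 promoter was searched.

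Nab2, the NAB corepressor that is itself inducible by growth factors, changed little. Its probe (A_52_P183138, chromosome 10, 127397636 to 127397695) had ratios of 0.24 and 0.28 at 1 h, of 0.0078 and 0.066 at 2 h, and of -0.14 and -0.053 at 4 h. The 1 h mean of 0.26 ± 0.0196 was 1.2-fold, with 575 of 30580 probes above it. Both orientations were above 0 at 1 h and below 0 at 4 h. The ratio was higher at 1 h than at 4 h by 0.38 and 0.34.

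The slope of Nab2 of -0.18 did not pass (SE 0.0299, limma adjusted p = 0.0781), nor did the mean response of 0.068 (adjusted p = 0.506). With the 6 arrays unaveraged and the replicate block, which pairs arrays by dye orientation, the slope passed (adjusted p = 0.0189). It also passed with no background correction (0.0114) and with median centring (0.049). That median-centring fit gave the Egr2 slope a limma adjusted p of 6.67e-69 from 3 samples, so its p-values carry little weight.

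Levels of Nab2 differed between arrays more than between treated and untreated cells. Treated and untreated levels were 7.82 and 7.58, then 7.66 and 7.37, on the 1 h arrays. On the 2 h arrays they were 8.99 and 8.98, then 9.03 and 8.96. On the 4 h arrays they were 7.19 and 7.33, then 7.06 and 7.11. The untreated channel of the 2 h arrays was 1.63 higher (log2, 3.09-fold) than that of the other arrays. It was at least 2-fold brighter than on every other array for 89 of 30580 probes, 80 of them in both channels, and the same count for the arrays of 1 h and 4 h was 0. The other member probes did not show this. The part of this difference in the 2 h ratios was not tested.

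By 1 h ratio the member probes ran, from high to low, Egr2 (1.28), Egr3 downstream (1.01), Nab2 (0.26), Nab1 upstream (0.24) and downstream (0.22), Egr3 upstream (0.0069) and Egr1 (-0.11). Nab2 lay within the distances of the 2 Nab1 probes, while Egr2 and Egr3 downstream stood apart from them. The order of Egr2 and Egr3 downstream turned with an offset of 16 (1.38 for Egr2 and 1.53 for Egr3) and on processed signals or the deposited table (1.44 and 2.27). Ratios above 0 at 1 h and below 0 at 4 h in both orientations were found for 3 member probes, Egr2, Egr3 downstream and Nab2, and for 2.4% of all probes. At 4 h the order was Nab1 upstream (0.31) and downstream (0.26), Egr3 upstream (0.061), Nab2 (-0.094), Egr1 (-0.41) and Egr2 (-0.46), and the last 2 differed by less than the distance of Egr1. The Egr3 downstream probe has no place in that order, since its 4 h treated signal was not well above background, and its ratio was -1.19 on processed signals. After loess, Nab1 was the one gene of the 5 with probes above 0 in both orientations at all 3 times.

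**Figure D3:**
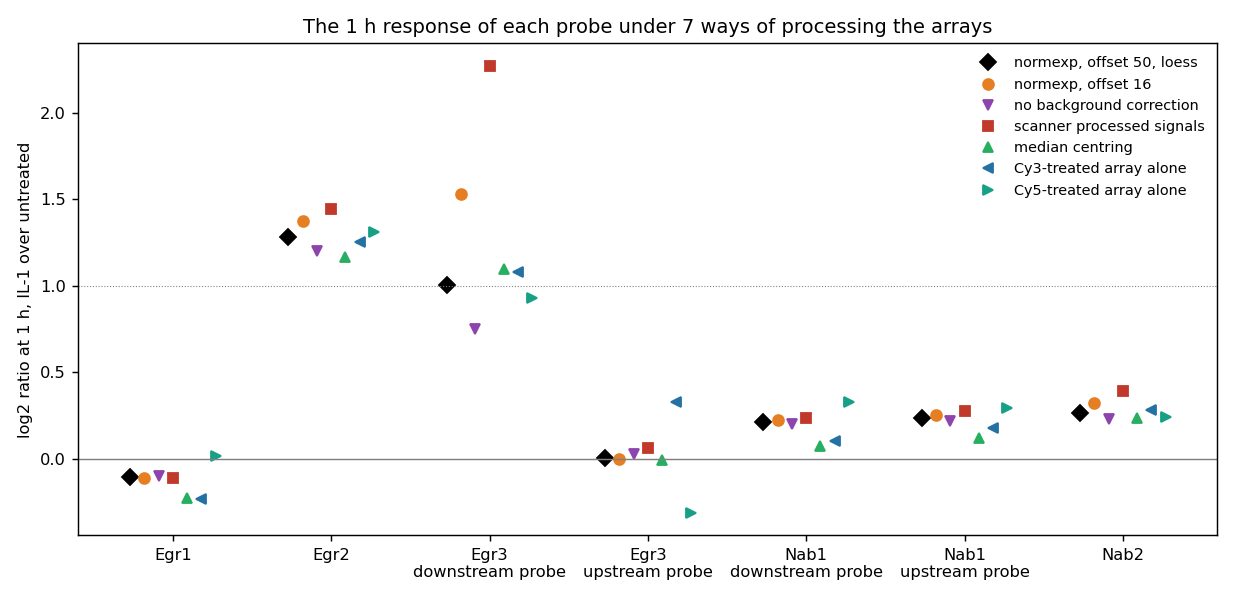
Log2 ratio at 1 h (y axis) of each member probe (x axis) under 7 ways of processing or subsetting the arrays, shown as separate symbols. The Egr3 downstream probe spreads from 0.75 to 2.27, Egr2 from 1.16 to 1.44, and the Egr3 upstream probe lies on both sides of 0 when either orientation is taken alone.

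By Euclidean distance over the 6 arrays, among 15454 genes with a symbol, the genes nearest to Egr2 were Klf10 (distance 0.516), Egr3 (0.539), Bhlhe40 (0.591), Kdm6b (0.700) and Atf3 (0.864). Klf10, a zinc finger factor induced by TGF-beta, averaged 1.39 at 1 h, -0.20 at 2 h and -0.22 at 4 h. Bhlhe40, a helix-loop-helix factor of the circadian clock, averaged 1.09, 0.080 and -0.12. Kdm6b, a histone H3 demethylase, averaged 1.13, 0.25 and -0.048, and Atf3, a stress-induced bZIP factor, averaged 1.18, 0.44 and -0.029. All 4 were high at 1 h and near or below 0 at 4 h. This follows from how they were picked, by nearness to Egr2 in these same ratios.

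Of 26 measured other immediate early genes, 5 passed the 2-fold rule at 1 h, against 47 of 22210 genes (0.212%). The 5 were Ier3 (1.85), Nr4a1 (1.64), Klf10 (1.39), Junb (1.33) and Atf3 (1.18). At 2 h and at 4 h 1 gene passed, Ier3 (1.33 and 1.11), an apoptosis regulator, against 40 (0.18%) and 30 (0.135%) genes. No gene of any list was 2-fold lower at any time, against 0.009% of genes. The median of the list was 0.49 at 1 h, 0.038 at 2 h and 0.040 at 4 h, against 0.0033, 0.0031 and 0.0027 over all genes. In the mean response 7 rose and 3 fell, against 10.8% and 11.1% of genes. Fos and Dusp1 were among those that fell, both at -0.32. Under median centring 1 gene, not 5, passed at 1 h and the list medians were 0.35, -0.099 and -0.027.

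Of 21 measured genes chosen as known EGR targets, 1 passed the 2-fold rule, Icam1, the adhesion molecule, at 2.34, 2.44 and 1.83. In the mean response 11 rose and 1 fell, against 10.8% and 11.1% of all genes. Vegfa, the vascular growth factor, averaged 0.98, 0.76 and 0.55, the largest ratio at 1 h after Icam1. The list medians were 0.16, 0.18 and 0.055, and 0.092, 0.012 and -0.0055 under median centring. Timp1, one of the 11 that rose, was saturated on 6 arrays. Without the 2 h sample 9 of the list were called, against 12 with it. Many of these genes also answer to NF-kB and other factors, and the list does not measure EGR activity.

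The NuRD list, partners of the NAB corepressors, had 13 of 13 genes measured and 0 that reached 2-fold. In the mean response 3 rose and 3 fell, against 10.8% and 11.1% of all genes. The largest 1 h ratios were those of the deacetylase Hdac2 (-0.29) and the histone-binding protein Rbbp7 (-0.14). Without the 2 h sample 1 gene was called, not 6. Of 19 measured kinases and SRF partners upstream of the EGR genes, 0 reached 2-fold, 4 rose and 1 fell, against the same shares of all genes. The largest 1 h ratios were those of the kinases Mapk3 (0.17) and Map2k2 (0.14). Without the 2 h sample 1 was called, not 5. Of 3 measured related zinc finger factors, Egr4 stood at 0.57 at 1 h, 0.010 at 2 h and 0.031 at 4 h, and its mean response did not pass (adjusted p = 0.233). With the processed signals Egr4 was at least 2-fold higher at 1 h. Sp1 fell by 0.087 (adjusted p = 0.0449), a call lost without the 2 h sample.

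**Figure D4:**
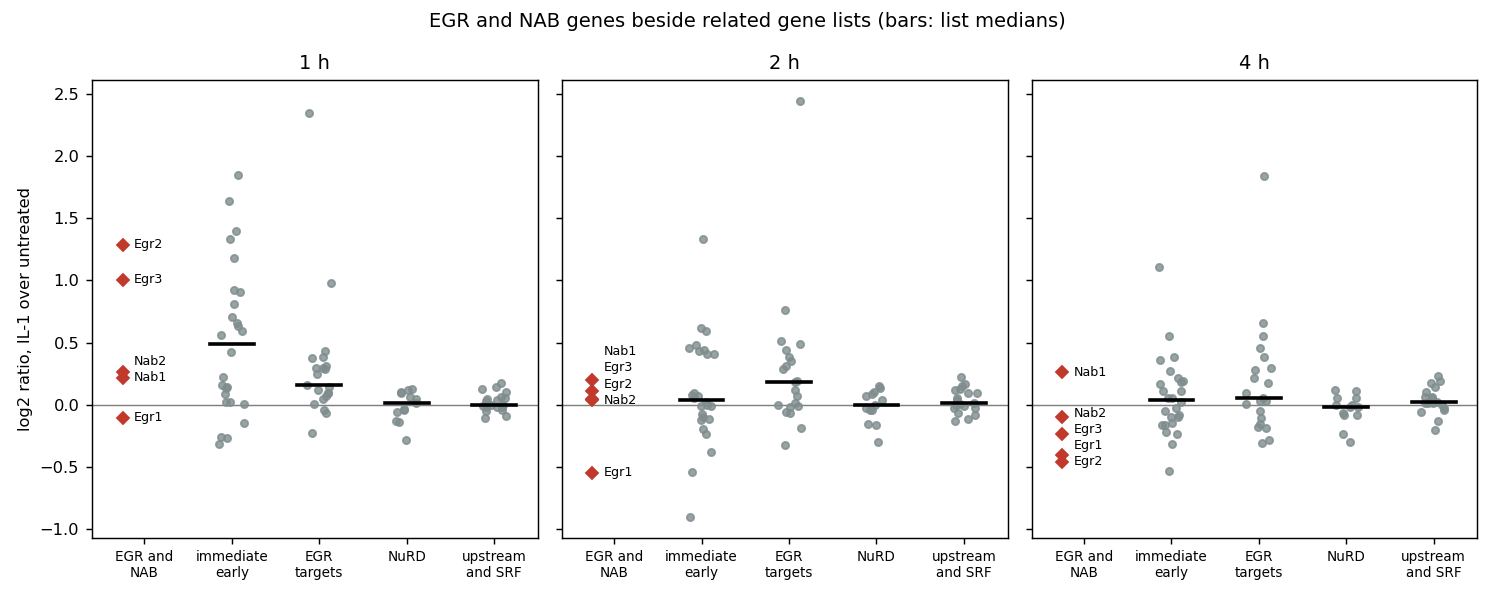
Log2 ratio of IL-1-treated over untreated RNA (y axis) at 1, 2 and 4 h (panels) for the EGR and NAB genes (diamonds, the downstream probe for Egr3 and Nab1) and the genes of 4 lists (circles, bars their medians). At 1 h Egr2 and Egr3 lie in the upper range of the immediate early genes, whose median is 0.49, while the NuRD and upstream lists lie near 0.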

How the data were processed

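RNA of IL-1-treated and untreated cells was co-hybridised to 6 Agilent two-colour arrays. Intensity values were deposited as scanner output of Feature Extraction 7.5.1, per the file headers; the deposited value table holds log2 ratios of processed signals. Each of its columns matches the treated over untreated ratio of its dye-swap partner (100% of spots, tolerance 0.001), so the columns of a pair are exchanged and pair means are unaffected. If instead the scanner files were exchanged, every sign given here would turn; signs follow the labelled dyes.

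Mean intensity was corrected with normexp (offset 50) and normalized by loess within arrays (limma 3.58.1, R 4.3.3). Of 41174 probes, 30637 were well above background on every array of a condition, and 57 of them lacked a value. Dye-swap arrays were averaged, and limma's lmFit and eBayes were run on 3 samples with Benjamini-Hochberg adjustment over 30580 probes. The brightest probe stood for a gene in lists (22210 genes). Same-numbered arrays share a dye orientation per the labels, and their deviations correlated at 0.765 to 0.843. Each array was its own slide, so slide could not be tested. Whether the untreated RNA was 1 extract is not stated, and the ratio leaves out the control's own spread. Named genes were the members, the 5 nearest to a member passing the 2-fold rule, and those of each list that were at least 2-fold higher or had the largest 1 h ratios; other genes named (Fos, Dusp1, Vegfa, Timp1, Egr4, Sp1) were chosen after their values were seen. Some genes of the lists are not reported here by name. The members and lists were chosen with earlier results of these data known. Figures were drawn with matplotlib. The fits were tested on simulated data. The planted changes were larger than the mean responses and slopes called for the members, so recovery of changes of their size was not tested.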

Additional observations from a re-analysis of the deposited data

Results flagged for a closer look

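Of the 7 member probes, 3 had ratios above 0 on both arrays at 1 h and below 0 on both at 4 h. These were Egr2, Egr3 downstream and Nab2, compared in the same kind of cells at different times. The Egr3 upstream probe had opposite signs in the 2 orientations. Of all probes, 2.4% went from above 0 to below 0 in this way. Under median centring, chosen as an alternative for this count after seeing the data, Egr2 alone kept the pattern. All 3 probes kept it with an offset of 16, with no background correction and on processed signals. For Egr2 the 1 h ratio exceeded the 4 h ratio by 1.74 on the log2 scale, for the Egr3 downstream probe by 1.24, and for Nab2 by 0.36. The difference between 1 h and 4 h alone was not tested, since each time point is 1 sample. The slope over all 3 times passed for Egr2 (limma adjusted p = 0.0149) and the Egr3 downstream probe (0.0227) and not for Nab2 (0.0781). At 4 h the treated signal of the Egr3 downstream probe was not well above background. Its 1.24 is therefore a measured difference only, and no minimum can be given for it.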

How the results depend on the processing

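The count of member probes at least 2-fold higher at 1 h was 1, and 2 with an offset of 16, the scanner's processed signals, the deposited value table or a 1.5-fold threshold, the second being the Egr3 downstream probe; leaving out either orientation gave 1 to 2. With median centring the count was also 1, but the probe was Egr3 downstream and not Egr2. The count higher at 1 h than at 4 h was 2, and 1 with no background correction or median centring. The count with a slope was 2, and 0 with the offset of 16, the processed signals, the deposited table or a trended robust variance (3 at an unadjusted p under 0.05 in each); leaving out either orientation gave 1 to 2. With the replicate block the mean response called 3 probes, as without it, and the slope called 3, the addition being Nab2. The block changed no other member call. The block counts arrays of the same RNAs separately. The upstream Egr3 probe's mean response was 0.41 (adjusted p = 0.00183) without replicate 1 and -0.33 (0.00126) without replicate 2; the cause was not tested. The mean response called 2 to 4 probes over all alternatives. Over the whole array, 6688 probes were called in the mean response, against 1966 with processed signals, 1788 without the 2 h sample, and 10440 and 11298 without replicate 1 and replicate 2. The slope called 134 probes, against 0 with the offset of 16, those signals or the trended robust variance, 514 with no background correction, 490 with median centring, 348 with the replicate block, and 47 and 21 without replicate 1 and replicate 2. A slope without a time point has no residual degrees of freedom and was not run. Signals of both Egr3 probes near background limit what they can show. Other causes were not tested.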
